A study of Mus musculus with 3 samples.

Results

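Wnt signalling genes were described in muscle satellite cells, which are the stem cells that rebuild muscle fibres, as measured by RNA sequencing. The genes are the Wnt ligands, their receptors, secreted antagonists and intracellular transducers. They were picked out by a rule on gene symbols, which was drawn up with earlier results of these data known, and 67 of the 20308 genes in the deposited table matched. The cells came from hindlimb muscle of mice aged 3 months of the Pax7-ZsGreen strain, in which the green fluorescent protein ZsGreen marks cells by way of Pax7, the transcription factor of satellite cells. Muscle of several animals was pooled, digested with collagenase and dispase and sorted, with about 200000 ZsGreen-positive cells per sample. The sample labels name the tibialis anterior, 1 muscle of the hindlimb, whereas the series description names hindlimb muscles. All 3 libraries belong to 1 group, so levels are described within this population and no condition is compared. Nothing in the labels says that the 3 libraries came from separate pools of mice, so p-values below reflect variation among these 3 samples alone, and that variation may be technical.

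Wnt proteins are secreted, lipid-modified signals that bind Frizzled receptors at the cell surface. In the canonical branch, Frizzled and an LRP co-receptor recruit Dishevelled, the complex of Axin and Apc no longer marks beta-catenin for destruction, and beta-catenin enters the nucleus to act with TCF and LEF factors. Other branches act through Ror and Ryk receptors or through the planar polarity proteins. In adult muscle, Wnt signals are known for their part in satellite cell quiescence, in the expansion of the stem cell pool and in the later commitment to differentiation.

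Levels are in TPM (a length-corrected share of each library's transcripts) and are given for replicates 1, 2 and 3 in that order or as mean ± SD over the 3 libraries (n = 3). In bulk RNA, fewer cells with a transcript and less transcript per cell cannot be told apart. A gene was called above or below 1 TPM when limma's moderated test on log2(TPM + 0.1), run over all 12822 genes above 0 in at least 1 library, gave a Benjamini-Hochberg adjusted p under 0.05. Of the 67 Wnt genes, 45 were tested and 22 were called above 1 TPM, which is 48.9% of those tested, against a background of 60.8% of all genes tested. Another 3 Wnt genes were called below 1 TPM, where the background was 2.18%, and 20 were undecided. The remaining 22, or 32.8% of the 67, were listed at 0 in all 3 libraries, against 36.9% of all genes in the table. The median level of the 45 tested genes was 6.39 TPM, against 11.5 TPM for all genes tested. A listed 0 can be a failed estimate in this table, since the ribosomal protein gene Rps27 also stands at 0 in all 3 libraries, and the depth of the libraries is unknown.

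**Figure D1:**
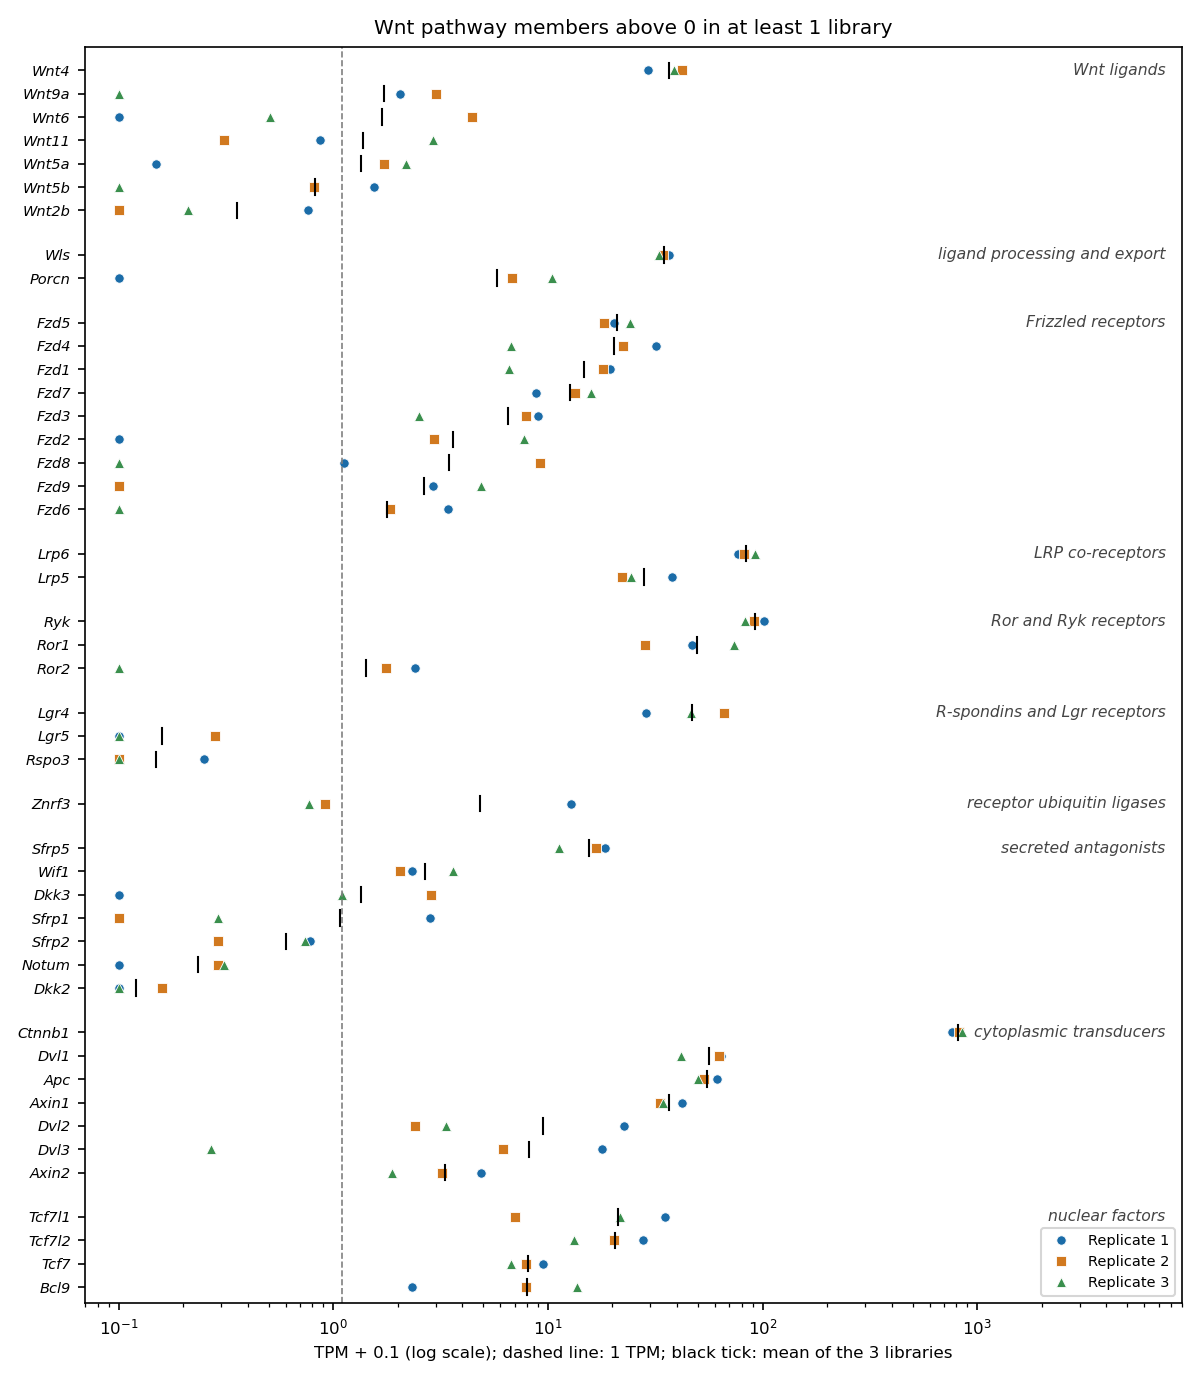
TPM + 0.1 on a log axis for the 45 Wnt genes above 0 in at least 1 library, grouped by role, with 1 symbol per replicate and a black tick at the mean. Ctnnb1 stands alone near 812 TPM, Wnt4 is the single ligand far above the dashed line at 1 TPM, and genes near that line often have a library at 0, drawn at the left.

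Among the 19 Wnt ligands, Wnt4 was the 1 gene called above 1 TPM. That was 14.3% of the 7 ligands tested, against 60.8% of all genes tested. Wnt4, a ligand known in adult muscle from work on satellite cell quiescence (chromosome 4, 137277489 to 137299726, GRCm38), was measured at 29.1, 42.0 and 38.7 TPM (36.6 ± 6.69 TPM; limma adjusted p = 9.97e-09). Its lowest library lay above the highest value of every other ligand, so its range overlapped none of theirs. In each library Wnt4 held most of the ligand transcript, 85.7%, 81.1% and 87.7% of the summed ligand TPM. The call held when any 1 replicate was left out and under both other pseudocounts and the level filter, with a highest limma adjusted p of 2.50e-06. Of 31-base words in its longest annotated transcript, 6.57% also occur in another gene.

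The next 6 ligands hovered around 1 TPM and none was called. Wnt9a was at 1.95, 2.90 and 0 TPM, and Wnt6 at 0, 4.33 and 0.41 TPM. Wnt11, a ligand of the planar polarity branch, was at 0.77, 0.21 and 2.83 TPM. Wnt5a and Wnt5b, close paralogues that are best known for signals through Ror receptors, gave 0.05, 1.63 and 2.08 TPM and 1.45, 0.71 and 0 TPM. Wnt2b was at 0.66, 0 and 0.11 TPM. These ranges overlapped each other, and no library was the highest for all 6, so no order among them can be read. The other 12 ligands, or 63.2% of the 19, were listed at 0 in all 3 libraries, against 36.9% of all genes in the table. These 12 were Wnt1, Wnt2, Wnt3, Wnt3a, Wnt7a, Wnt7b, Wnt8a, Wnt8b, Wnt9b, Wnt10a, Wnt10b and Wnt16. They include Wnt7a, used in muscle work as a ligand that expands satellite cells through Fzd7, and Wnt3a, the usual reagent for canonical signalling.

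Within each library, Wnt4 exceeded Wnt5a by 5.46 ± 1.88 on the log2(TPM + 0.1) scale, and it was higher in 3 of 3 libraries. For this and every other pair with 1 direction in all 3 libraries, the exact sign-flip permutation p was 0.25, two-sided, the smallest that 3 libraries allow. Of 32 pairs compared, 14 had both genes above 0 in all 3 libraries and a ratio is given for those alone. In 10 of the 14, the same gene was the higher in every library.

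Export of ligand was covered by 2 genes. Wls, the carrier that takes Wnt proteins to the cell surface, was nearly the same in all libraries at 36.7, 34.5 and 32.8 TPM (limma adjusted p = 8.02e-09). Porcn, the enzyme that adds the lipid, was listed at 0 in replicate 1 and stood at 6.69 and 10.4 TPM in replicates 2 and 3. It was undecided with all libraries (limma adjusted p = 0.691) and called above 1 TPM without replicate 1 (limma adjusted p = 0.000368), so that 1 library decides its call.

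Promoter windows were available for 45 of the 67 genes and were searched for the letters CTTTGAA and CTTTGAT, common forms of the site that TCF and LEF factors bind, on both strands. The 2 forms share their opening 6 letters and cannot both match at the same place on 1 strand. A match was found in 2 of the 45 windows (4.44%), against 2370 of 27025 windows of all genes (8.77%) and 588 of 9658 windows of genes above 0 in at least 1 library (6.09%). The windows that matched are those of Wnt11 and Dkk1, a secreted antagonist that was listed at 0 in all libraries. Both are shown with the match in capitals, beside the window of Wnt4, the leading ligand, which holds neither form. Each is RefSeq sequence of GRCm38.p6 from 250 bases before to 50 bases after the annotated start, read in the direction of the gene: Wnt4 from chr4:137277385-137277684 (plus strand), Wnt11 from chr7:98834862-98835161 (plus strand) and Dkk1 from chr19:30549447-30549746 (minus strand).
Wnt4: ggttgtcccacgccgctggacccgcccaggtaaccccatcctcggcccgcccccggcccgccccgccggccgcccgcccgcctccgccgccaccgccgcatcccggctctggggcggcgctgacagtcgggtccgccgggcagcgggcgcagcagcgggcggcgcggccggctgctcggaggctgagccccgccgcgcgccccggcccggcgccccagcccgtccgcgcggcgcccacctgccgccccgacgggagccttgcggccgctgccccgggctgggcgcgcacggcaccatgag
Wnt11: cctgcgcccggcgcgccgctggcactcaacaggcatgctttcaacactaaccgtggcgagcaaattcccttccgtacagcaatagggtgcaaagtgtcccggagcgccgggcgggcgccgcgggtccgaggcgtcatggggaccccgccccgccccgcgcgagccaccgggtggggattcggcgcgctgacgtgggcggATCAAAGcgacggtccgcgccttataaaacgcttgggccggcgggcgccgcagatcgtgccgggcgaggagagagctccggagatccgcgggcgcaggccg
Dkk1: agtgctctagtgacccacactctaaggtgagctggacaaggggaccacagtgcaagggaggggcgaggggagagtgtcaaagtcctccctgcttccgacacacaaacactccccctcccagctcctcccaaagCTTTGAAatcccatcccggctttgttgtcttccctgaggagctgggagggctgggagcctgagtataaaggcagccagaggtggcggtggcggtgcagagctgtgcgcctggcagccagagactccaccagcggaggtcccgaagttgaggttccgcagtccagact
The Wnt11 match begins 51 bases before the start and reads as the opposite strand of CTTTGAT. The Dkk1 match begins 117 bases before the RefSeq start, on the strand of the gene. The GENCODE M21 annotation, used for the other gene positions given here, starts Dkk1 further upstream, at 30549665, so there the match lies inside the gene. For Wnt4 too the annotations differ, with a GENCODE start at 137277489. The Wnt4 window is 84.3% G and C, against 71.3% for Wnt11 and 60.7% for Dkk1. A match is a description of the letters in these 300 bases, and factor binding was not measured.

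Several Frizzled receptor genes were measured, and no single one was the highest in every library. Of 10 Frizzled genes, 5 were called above 1 TPM, 4 were undecided and Fzd10 was listed at 0 in all libraries. The called genes were 55.6% of the 9 tested, against 60.8% of all genes tested. Fzd5 was the steadiest of the 5, at 20.3, 18.3 and 24.1 TPM (limma adjusted p = 3.94e-07). Fzd4, the receptor of the ligand Norrin in blood vessels, was at 31.7, 22.2 and 6.62 TPM (limma adjusted p = 3.05e-05). Fzd1 was at 19.4, 18.0 and 6.51 TPM (limma adjusted p = 5.47e-05). In both Fzd4 and Fzd1, replicate 3 was well below the other libraries.

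Fzd7, the receptor studied most in satellite cells (chromosome 1, 59482424 to 59486955, GRCm38), was at 8.75, 13.3 and 15.8 TPM (limma adjusted p = 3.92e-05). Replicate 3 was the highest library for Fzd7 and the lowest for Fzd4 and Fzd1, so the log2 ratio of Fzd7 over Fzd4 was -0.45 ± 1.57 and turned sign between libraries. Fzd3 was at 8.92, 7.84 and 2.42 TPM (limma adjusted p = 0.0204), and its call was lost without replicate 1 (limma adjusted p = 0.112) or replicate 2 (0.102). The 4 undecided receptors each had a library at 0: Fzd2 at 0, 2.86 and 7.65 TPM, Fzd8 at 1.02, 9.09 and 0 TPM, Fzd9 at 2.83, 0 and 4.78 TPM, and Fzd6 at 3.34, 1.73 and 0 TPM.

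Ordered by mean, the Frizzled genes ran Fzd5, Fzd4, Fzd1, Fzd7, Fzd3, Fzd2, Fzd8, Fzd9 and Fzd6. In all 8 neighbouring pairs the ranges over the libraries overlapped. Genes further apart in this order could be separate. The lowest library of Fzd5, at 18.3 TPM, lay above the highest of Fzd7, at 15.8 TPM, and above every library of the genes after Fzd7. Their summed level was 96.2, 93.3 and 67.9 TPM. Fzd4 made up 32.96%, 23.8% and 9.75% of that sum and Fzd7 made up 9.10%, 14.2% and 23.3%. Of the exon length of Fzd5, 17.8% is shared with the annotated gene Gm38058, and no strand setting is given in the sources used here.

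**Figure D2:**
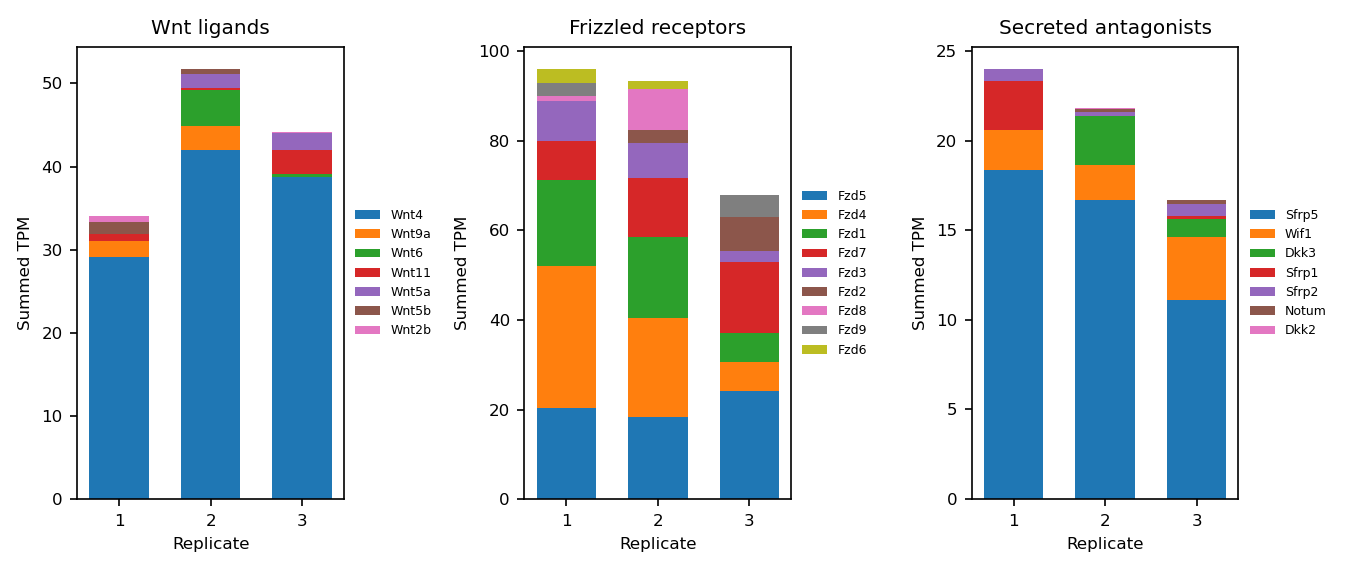
Stacked TPM of each gene (coloured segments) in replicates 1, 2 and 3 for the Wnt ligands, the Frizzled receptors and the secreted antagonists, each panel on its own axis from 0. Wnt4 and Sfrp5 fill most of their bars, whereas the Frizzled bars of 96.2, 93.3 and 67.9 TPM are divided among several genes in proportions that differ by library.

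Both canonical co-receptors were called above 1 TPM, as were 60.8% of all genes tested. Lrp6 was at 77.0, 82.0 and 92.0 TPM and Lrp5 at 37.7, 22.2 and 24.2 TPM (limma adjusted p = 7.29e-11 and 9.57e-08). Lrp6 was the higher in 3 of 3 libraries, by 1.61 ± 0.51 on the log2 scale (3.05-fold; exact sign-flip permutation p = 0.25), and the ranges did not overlap. The summed level of the 2 co-receptors, 112 ± 6.58 TPM, was larger than that of all Frizzled genes in each library.

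Receptors of the non-canonical branches were among the highest of the set. Ryk, a receptor with a Wnt-binding extracellular domain and an inactive kinase, was at 101, 91.4 and 82.7 TPM (limma adjusted p = 5.29e-11). Ror1, a receptor tyrosine kinase, was at 47.0, 28.2 and 73.9 TPM (limma adjusted p = 2.95e-08), while its paralogue Ror2 was at 2.30, 1.67 and 0 TPM and was undecided. Ryk exceeded Ror1 in 3 of 3 libraries, by 0.99 ± 0.77 on the log2 scale, but by 0.16 in replicate 3, where Ror1 was highest. The ranges of Ryk, Ror1 and Ror2 did not overlap.

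R-spondins amplify Wnt signals by binding Lgr receptors and removing the ubiquitin ligases Rnf43 and Znrf3, which clear Frizzled from the membrane. Of the 3 Lgr genes, Lgr4 (chromosome 2, 109917647 to 110014257, GRCm38) was called above 1 TPM at 28.5, 65.9 and 46.3 TPM (limma adjusted p = 2.00e-08), with replicate 2 the highest. Lgr5, the stem cell marker of the intestine, was at 0, 0.18 and 0 TPM and was called below 1 TPM (limma adjusted p = 0.0414), and Lgr6 was listed at 0. Of the R-spondins, Rspo1, Rspo2 and Rspo4 were listed at 0 in all libraries. Rspo3, at 0.15, 0 and 0 TPM, was called below 1 TPM (limma adjusted p = 0.0365). So the receptor transcript was present while ligand transcript was at or near 0 in every library. Rnf43 was listed at 0, and Znrf3 was at 12.7, 0.82 and 0.67 TPM, a 19.0-fold difference between its highest and lowest library. Its mean of 4.74 TPM falls to 0.745 TPM without replicate 1.

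The 10 secreted antagonists summed to 24.0, 21.8 and 16.7 TPM, and Sfrp5 was the 1 gene called above 1 TPM. That was 14.3% of the 7 antagonists tested, against 60.8% of all genes tested. Sfrp5, a decoy with a Frizzled-like domain that binds Wnt proteins (chromosome 19, 42197971 to 42202252, GRCm38), was at 18.4, 16.7 and 11.1 TPM (limma adjusted p = 6.78e-06). It held 73.2% ± 5.59 of the antagonist TPM, and its range overlapped no other antagonist. Wif1, which binds Wnt proteins directly, was at 2.24, 1.95 and 3.50 TPM, above 1 TPM in each library but undecided (limma adjusted p = 0.363).

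The other Sfrp and Dkk genes were low. Sfrp1 was at 2.73, 0 and 0.19 TPM and Sfrp2 at 0.68, 0.19 and 0.64 TPM, both undecided, and Sfrp4 was listed at 0. Of the Dkk genes, which block LRP co-receptors, Dkk1 and Dkk4 were listed at 0, and Dkk2, at 0, 0.06 and 0 TPM, was called below 1 TPM (limma adjusted p = 0.022). Dkk3, a family member without a settled role in Wnt signalling, was at 0, 2.76 and 1 TPM. Notum, an enzyme that strips the lipid from Wnt proteins, was at 0, 0.19 and 0.21 TPM, and 38.1% of its exon length overlaps other annotated genes. The calls of Lgr5, Rspo3 and Dkk2 below 1 TPM were each lost with a pseudocount of 0.01 and when either library at 0 was left out; without the library above 0, they could not be tested.

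Among the cytoplasmic transducers, beta-catenin stood above Apc, the Axin genes and the Dishevelled genes in every library. Ctnnb1, which encodes beta-catenin and also serves cadherin adhesion (chromosome 9, 120929216 to 120960507, GRCm38), was at 762, 823 and 853 TPM (limma adjusted p = 2.02e-13). It ranked 227 of the 20308 genes by mean level and made up 82.8% ± 4.30 of the cytoplasmic transducers' TPM. Of its exon length, 15.1% overlaps other genes, among them the opposite-strand gene Ulk4 at 1.49, 0 and 0.81 TPM. Apc and Axin1, scaffolds of the destruction complex, were at 61.1, 53.4 and 49.7 TPM and at 41.9, 33.1 and 34.4 TPM. Ctnnb1 exceeded Apc by 3.89 ± 0.23 on the log2 scale (14.9-fold), in 3 of 3 libraries. Axin2, the Axin paralogue that is itself a target of the pathway, was at 4.79, 3.13 and 1.77 TPM and was undecided (limma adjusted p = 0.24). The log2 ratio of Axin2 over Axin1 was -3.56 ± 0.58, with Axin2 lower in 3 of 3 libraries and no overlap of ranges.

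The Dishevelled genes, which relay the signal from Frizzled, were uneven between libraries. Dvl1 was at 64.1, 62.9 and 41.6 TPM and was called above 1 TPM (limma adjusted p = 1.55e-09). Dvl2 was at 22.5, 2.30 and 3.26 TPM, and its call (limma adjusted p = 0.0344) was lost without replicate 1 (0.47) and with a pseudocount of 1 (0.0781). Dvl3 was at 17.9, 6.10 and 0.17 TPM and was undecided (limma adjusted p = 0.364); without replicate 3 it was called (1.66e-06). Replicate 1 was the highest library for all 3 genes. Dvl1 exceeded Dvl3 in 3 of 3 libraries, and its range overlapped neither paralogue. Of the exon length of Dvl2, 19.7% overlaps other genes, among them Acadvl on the opposite strand, a mitochondrial enzyme gene at 151, 174 and 165 TPM; the part of those reads in Dvl2 was not tested.

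**Figure D3:**
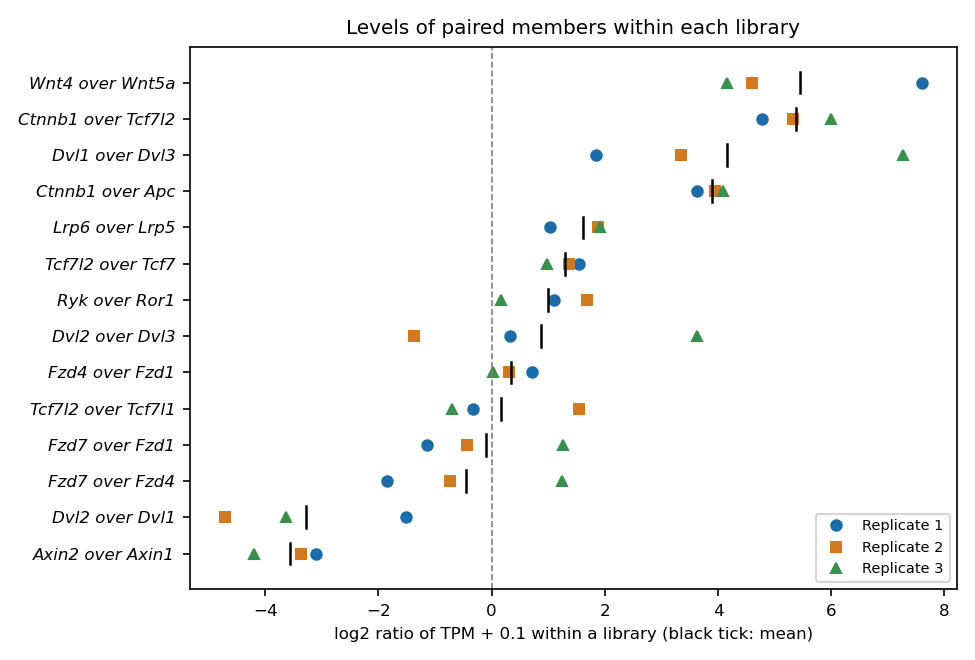
Log2 ratio of TPM + 0.1 between 2 Wnt genes within each library (1 symbol per replicate, black tick at the mean) for the 14 pairs with both genes above 0 in all libraries. Ctnnb1 over Apc is tight at 3.64 to 4.10, whereas Dvl1 over Dvl3 runs between 1.84 and 7.27 and 4 pairs have symbols on both sides of 0.

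Of the nuclear factors, Tcf7l1, Tcf7l2, Tcf7 and Bcl9 were called above 1 TPM and Lef1 was listed at 0 in all libraries. All 4 nuclear factors tested were thus called, against 60.8% of all genes tested. Tcf7l1, mostly known as a repressor (chromosome 6, 72626378 to 72789254, GRCm38), was at 34.9, 6.92 and 21.6 TPM (limma adjusted p = 2.62e-05). Tcf7l2 (chromosome 19, 55741820 to 55933654, GRCm38) was at 27.6, 20.3 and 13.2 TPM (limma adjusted p = 1.37e-06). The 2 did not differ beyond their spread, with a log2 ratio of Tcf7l2 over Tcf7l1 of 0.17 ± 1.204 (exact sign-flip permutation p = 1). Tcf7, which encodes TCF1, was steady at 9.39, 7.82 and 6.65 TPM (limma adjusted p = 0.0012), and lay below Tcf7l2 in 3 of 3 libraries. Bcl9, a coactivator that binds beta-catenin, was at 2.23, 7.81 and 13.6 TPM (limma adjusted p = 0.0137), and its call was lost without replicate 3 (0.119).

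Together the 67 genes summed to 1546, 1527 and 1530 TPM, or 0.155%, 0.153% and 0.153% of all TPM. Without Ctnnb1 the sums were 784, 704 and 678 TPM. The spread of single genes was less even. Of the 29 Wnt genes above 0 in all libraries, 18 (62.1%) were highest in replicate 1, 2 in replicate 2 and 9 in replicate 3. Over all 9119 genes above 0 in all libraries, 34.7% were highest in replicate 1, 34.6% in replicate 2 and 30.7% in replicate 3. Of the 22 called above 1 TPM, 12 had an SD of log2(TPM + 0.1) below the median SD of tested genes of similar level, taken over 10 bins of equal size, and 10 had a larger one. Tcf7l1 had an SD of 1.19, against a median of 0.47, and Dvl2 an SD of 1.75, against 0.78. Fzd4, at 1.18 against 0.58, and Ror1, at 0.69 against 0.37, were also variable. Of the 22, Wls had the lowest SD relative to its bin, at 0.08 against 0.37.

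**Figure D4:**
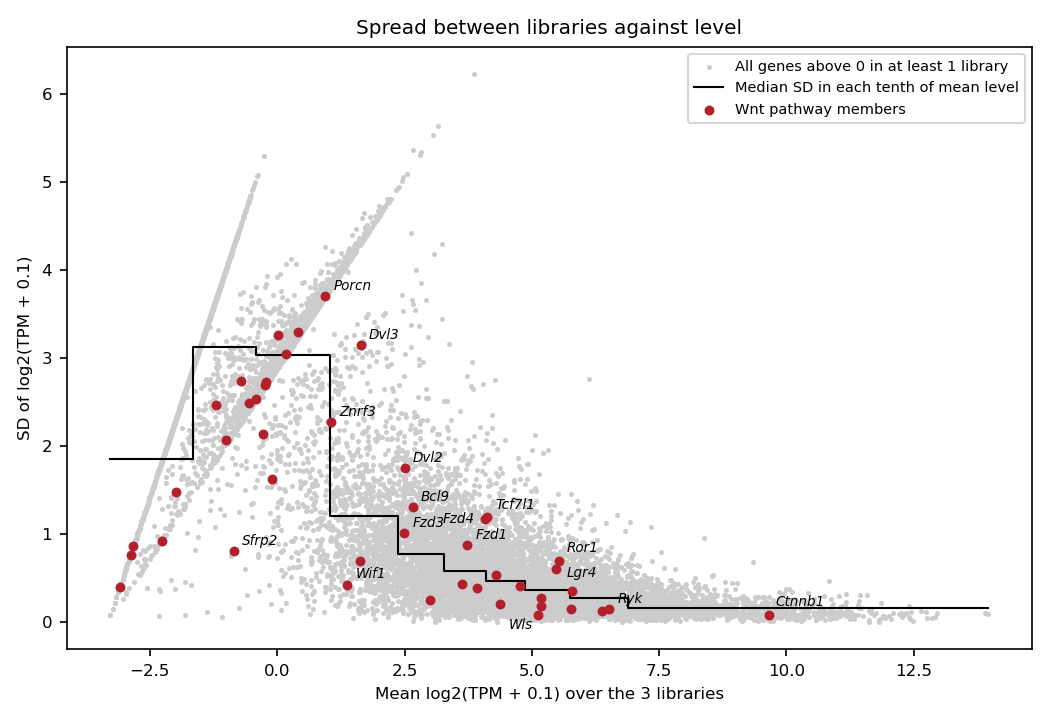
SD of log2(TPM + 0.1) over the 3 libraries against mean log2(TPM + 0.1), with all 12822 tested genes in grey, Wnt genes in red and the median SD of each of 10 level bins as a black line. Ctnnb1, Ryk and Wls lie under the line, and Tcf7l1, Fzd4, Ror1, Dvl2 and Bcl9 lie over it.

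The sort was checked against its markers. All 10 satellite cell markers were called above 1 TPM and summed to between 7794 and 8205 TPM per library. The largest parts of that sum were Sdc4 at 4135 ± 192 TPM, Myod1 at 1240 ± 74.5 TPM and Des at 1164 ± 17.9 TPM. The lowest of the markers were Pax7 at 51.4 ± 5.22 TPM and Calcr at 31.5 ± 3.45 TPM. Markers of other cells were also measured. Of all genes tested, 60.8% were called above 1 TPM. All 8 endothelial markers were called and summed to between 187 and 294 TPM. Fibro-adipogenic markers, 5 of 10 called, summed to between 2089 and 2340 TPM. The 5 called were Gsn at 888 ± 104 TPM, Col3a1 at 585 ± 29.9 TPM, Dpt at 572 ± 16.7 TPM, Dcn at 128 ± 41.9 TPM and Ly6a at 23.4, 41.2 and 36.2 TPM. Lum, Pi16, Cd248 and Pdgfra were undecided, with Pdgfra at 4.98, 0.11 and 0.06 TPM, and Osr1 was listed at 0 in all libraries. Called were 5 of 8 pericyte and smooth muscle markers (452 to 513 TPM in sum) and 5 of 6 tendon markers (221 to 336 TPM). Also called were 3 of 6 Schwann cell markers (93.4 to 122 TPM), 3 of 8 leukocyte markers (233 to 280 TPM) and 3 of 8 mature fibre markers (60.9 to 95.1 TPM). Of those tested, the called share was 62.5% for pericyte and smooth muscle, 83.3% for tendon and 55.6% for fibro-adipogenic markers. It was 50% for Schwann and 42.9% each for leukocyte and mature fibre markers. Apart from the endothelial and tendon lists, these shares were near or below 60.8%. Those counts alone do not show that such cells were present. The endothelial sum was highest in replicate 3. Of the 29 Wnt genes above 0 in all libraries, 9 were highest in that replicate and 13 were lowest, Fzd4 among the latter. Among all 9119 genes above 0 in all libraries, 30.7% were highest in replicate 3 and 36.9% were lowest there. Such counts cannot show which cells a transcript came from. The part of other cell types in any Wnt gene's level was not tested.

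Over 8 lists of other pathway genes, 147 further genes were measured. Of these, 97 were called above 1 TPM, 2 below, 33 were undecided and 15 were listed at 0. So 73.5% of the 132 tested were above, against 60.8% of all genes tested. Their median was 21.6 TPM, beside 1.32 TPM for the 67 Wnt genes and 2.24 TPM for all genes in the table. The partners of the destruction complex were called in 17 of 20, led by the casein kinases Csnk1d at 474 ± 26.5 TPM and Csnk1a1 at 474 ± 49.5 TPM and the phosphatase subunit Ppp2ca at 138 ± 13.5 TPM. Nuclear cofactors were called in 19 of 24, led by the Groucho-type corepressor Tle3 at 78.6 ± 7.26 TPM, the acetyltransferase Crebbp at 76.9 ± 6.48 TPM and the corepressor Tle4 at 73.4 ± 26.0 TPM. Adhesion partners of beta-catenin were called in 9 of 10, with alpha-catenin Ctnna1 at 333 ± 21.7 TPM, Ctnnd1 at 267 ± 30.5 TPM and the muscle cadherin Cdh15 at 120 ± 23.9 TPM.

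Genes of ligand traffic were called in 14 of 16, led by Tmed2 at 618 ± 71.4 TPM, Atp6ap2 at 216 ± 41.9 TPM and Tmed9 at 128 ± 15.3 TPM, which serve secretion in general. Of 34 planar polarity and other non-canonical genes, 18 were called, or 58.1% of the 31 tested, against 60.8% of all genes tested. They were led by the small GTPases Cdc42 at 705 ± 76.0 TPM and Rhoa at 404 ± 29.0 TPM and the kinase Rock2 at 297 ± 13.6 TPM. These 3 act in many pathways. Vangl1 was listed at 0 in all libraries, and Vangl2, the polarity protein linked to Wnt7a and Fzd7 in satellite cells, was at 0.35, 0 and 0 TPM and undecided. The choice to name Vangl1 was made with its values known.

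Of 25 feedback and extracellular modulators, 7 were called above 1 TPM and 1 below, with a median of 1.45 TPM. Those above were 38.9% of the 18 tested, against 60.8% of all genes tested. The Dkk receptor Kremen1 was at 107 ± 18.3 TPM, Igfbp4 at 92.2 ± 11.7 TPM and Gpr124, a co-receptor for Wnt7 proteins in blood vessels, at 43.7 ± 3.34 TPM. So a Dkk receptor was called while no Dkk gene was called above 1 TPM.

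**Figure D5:**
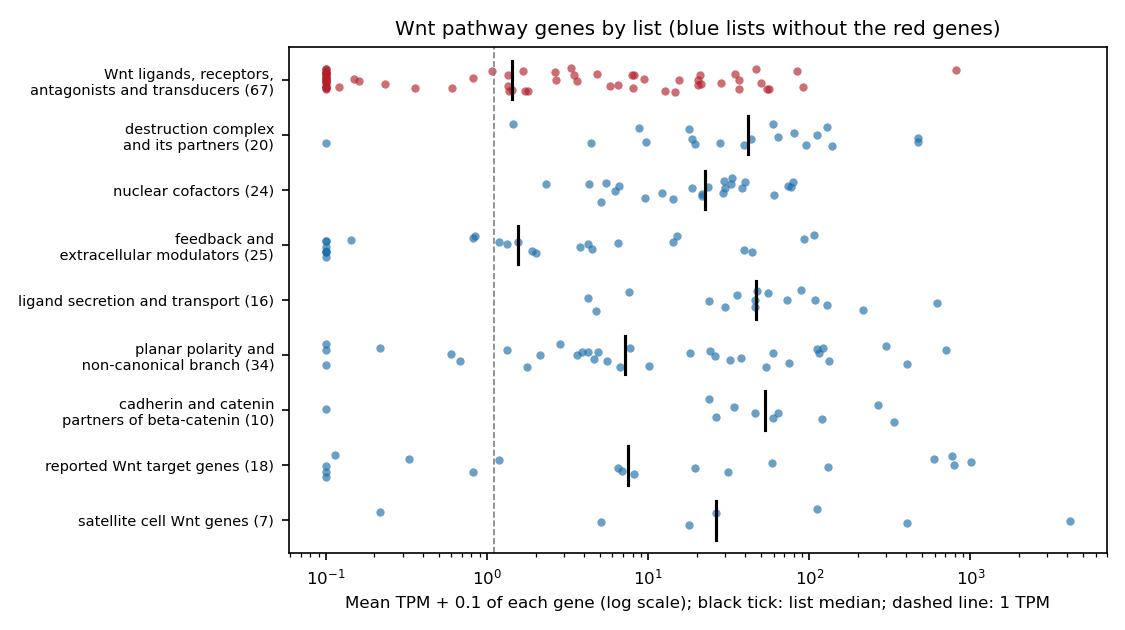
Mean TPM + 0.1 of each gene on a log axis for the 67 Wnt genes (red) and 8 lists of other pathway genes (blue, with the number of genes in brackets), with list medians as black ticks. The blue lists of destruction complex, secretion and adhesion partners centre between 41.5 and 52.9 TPM, while the feedback list centres at 1.45 TPM.

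Reported target genes were divided between those inside and outside the pathway. Of 11 Wnt genes that are also reported targets, Tcf7 was called above 1 TPM, Lgr5 below, Axin2, Znrf3, Wif1, Porcn and Notum were undecided, and Lef1, Rnf43, Dkk1 and Dkk4 were listed at 0. The 1 called above was 14.3% of the 7 tested. Of 18 other reported targets, 11 were called above 1 TPM, or 73.3% of the 15 tested, against 60.8% of all genes tested. The highest were Myc at 1011 ± 69.4 TPM, Jun at 791 ± 117 TPM, the adhesion receptor Cd44 at 763 ± 81.8 TPM and Fosl1 at 591 ± 75.5 TPM, which many other signals also induce. Sox9 was at 131 ± 17.6 TPM, Ppard at 58.8 ± 10.9 TPM, Ccnd1 at 31.2 ± 8.30 TPM and Tnfrsf19 at 19.5 ± 2.59 TPM. Tbx3 was at 10.4, 3.89 and 10.1 TPM, Ephb3 at 7.59, 7.79 and 4.88 TPM and the activin antagonist Fst at 3.07, 11.0 and 5.05 TPM. Ephb2, at 0, 0.04 and 0 TPM, was called below. The feedback gene Nkd1, at 2.07, 0 and 0.10 TPM, was undecided, as were Apcdd1, at 0.36, 2.13 and 0.75 TPM, and Nrcam, at 0.13, 0.56 and 0 TPM. Sp5, Ascl2 and Cdx1 were listed at 0.

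Of 19 genes studied for Wnt signalling in satellite cells, 10 were called above 1 TPM. That was 66.7% of the 15 tested, near the 60.8% of all genes tested. Beside Wnt4, Fzd7, Lgr4, Apc and Bcl9, they were the Fzd7 co-receptor Sdc4 at 4135 ± 192 TPM, its partner fibronectin (Fn1) at 26.3 ± 2.08 TPM, Rac1 at 112 ± 18.1 TPM, Rhoa, and the kinase Gsk3b, which phosphorylates beta-catenin, at 17.9 ± 3.98 TPM. The Bcl9 paralogue Bcl9l was at 9.09, 2.10 and 3.8 TPM and undecided. These roles come from earlier work on muscle and were not tested here.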

How the data were processed

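RNA was isolated with a Picopure kit and libraries followed Illumina protocols, per the labels. CASAVA 1.8, Bowtie 0.12.9, RSEM 1.2.3 and the build mm10 are named in the submitters' processing notes, with no roles or settings. Strand, RNA selection and annotation: not given in the sources used here. The authors deposited 1 table of TPM with 1 column per library, rescaled after mitochondrial genes were left out, per the name of the table. TPM keeps no read totals, so the depth is unknown and counting error cannot be given.

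Levels were tested with limma 3.58.1 in R 4.3.3: an intercept on log2(TPM + 0.1) against log2(1 + 0.1), two-sided, with eBayes variances that follow the level, and p-values adjusted by Benjamini-Hochberg over 12822 genes. The scale understates folds of low genes. Pair ratios used an exact sign-flip permutation test. Positions, exon overlaps and shared 31-base words are from GENCODE M21 (GRCm38, the assembly also called mm10), in which all 67 symbols had a position; promoters are RefSeq windows of GRCm38.p6. The promoters of 22 members were not analysed here. Alternatives were 2 other pseudocounts, a level filter, scaling by median of ratios, no variance trend, a level of 5 TPM and each replicate left out. Every member is named, with the 3 highest genes of each other pathway list and all genes of the target and satellite cell lists. The members, lists and pairs were chosen with earlier results of these data known.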

Additional observations from a re-analysis of the deposited data

How the results depend on the processing

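The number of Wnt genes above 1 TPM was 22 in the reported test and between 18 and 23 under the other settings, with 18 at a level of 5 TPM and 21 to 22 when 1 replicate was left out. All genes above 1 TPM numbered 7796, and 7718 to 8008 with 1 replicate left out. The number below 1 TPM was 3; it was 0 with a pseudocount of 0.01, 0 with a filter at a mean of 0.1 TPM, 0 without any 1 replicate and 5 at a level of 5 TPM. By limma's unadjusted p under 0.05, these counts of 0 were 1 with the pseudocount of 0.01 and 0 with the filter and without any 1 replicate. The filter removes these genes before testing and 2 libraries leave fewer samples; for the pseudocount the cause was not tested. Scaling by median of ratios put the sum of the cytoplasmic transducers at 971 TPM, against 980 TPM, a shift beyond their small SD of 5.73. Under that scaling, the other family sums moved by less than 1 SD. The same held with each replicate left out, but had to, since dropping 1 of 3 libraries cannot shift a mean by 1 SD.

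Undecided genes near the level changed side. As log2 distance from 1 TPM, a pseudocount of 0.01 gave -0.19 for Porcn, -0.74 for Fzd2 and -0.97 for Fzd9. A pseudocount of 1 gave 0.17 for Wnt9a, 0.012 for Wnt11, 0.029 for Wnt5a, 0.45 for Fzd8, 0.19 for Fzd6 and 0.046 for Ror2. With 1 replicate left out, the distance ran between -1.28 and 1.17 for Wnt9a, -2.28 and 0.45 for Wnt6, -1.08 and 0.54 for Wnt11, -1.11 and 0.82 for Wnt5a, -1.95 and 0.027 for Wnt5b, -0.42 and 2.94 for Porcn, -1.02 and 2.12 for Fzd2, -1.72 and 1.54 for Fzd8, -1.02 and 1.78 for Fzd9, -1.36 and 1.19 for Fzd6, -1.39 and 0.91 for Ror2, -0.39 and 1.64 for Znrf3, and -1.73 and 0.69 for Dkk3. In the same way, the log2 ratio ran between -0.52 and 1.99 for Dvl2 over Dvl3, -0.52 and 0.60 for Tcf7l2 over Tcf7l1, -1.29 and 0.25 for Fzd7 over Fzd4, and -0.79 and 0.41 for Fzd7 over Fzd1; the cause was not tested. Both other pseudocounts moved all 14 ratios by less than 1 SD. No analysis of paired samples was possible because the 3 libraries form 1 group.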

Other observations

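In GRCm38, 4 pairs of Wnt genes lie within 100000 bases of each other. Wnt6 and Wnt10a lie 6193 bases apart on chromosome 1, and Wnt6 was at 0, 4.33 and 0.41 TPM while Wnt10a was listed at 0 in all libraries. Wnt9a and Wnt3a lie 16175 bases apart on chromosome 11, on opposite strands, and Wnt9a was at 1.95, 2.90 and 0 TPM while Wnt3a was listed at 0. Both genes of the other 2 pairs, Wnt9b with Wnt3 and Wnt10b with Wnt1, were listed at 0 in all libraries. Wnt4, the ligand with the highest level, lies in no such pair. The difference within a pair was not tested, since both Wnt6 and Wnt9a were undecided against 1 TPM.

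Genes that serve Fzd4 and Wnt7 signals in blood vessels were also measured, and were chosen after their values were seen. Tspan12, a partner of Fzd4, was at 15.4, 23.9 and 5.93 TPM, and Reck, the partner of Gpr124, was at 2.46, 4.26 and 12.6 TPM. Both were called above 1 TPM by limma, while Ndp, the ligand Norrin, and Wnt7a and Wnt7b were listed at 0 in all libraries. Musk, the muscle receptor kinase of the nerve-muscle synapse whose extracellular part holds a Frizzled-like domain, was at 148.2, 122.95 and 123.25 TPM, and its co-receptor Lrp4 was at 1.93, 1.82 and 1.64 TPM and undecided.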
